A study of Mus musculus with 768 samples.

Results

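The 10 genes Pdgfra, Cspg4, Lhfpl3, Matn4, Tnr, Gpr17, Neu4, Bmp4, Enpp6 and Bcas1 were followed in single cells sorted from the mouse dentate gyrus. They were taken by name, as genes of oligodendrocyte precursors and of the passage from precursor to oligodendrocyte, and are 10 of the 32679 genes counted. All 10 had a row in the count table, and each reached 10 CPM, a gene's counts scaled so that every well has the same total, in at least 17 of 659 single-cell wells. The cells carried the Nestin:GFP reporter, green fluorescent protein under regulatory sequence of Nes, a gene of neural stem cells that other cell types of the niche also use. They came from 8 male Nestin:GFP mice, injected from an age of 2 months. The 4 mice numbered 2, 4, 6 and 8 received a synthetic mimic of the microRNA miR-132, and the 4 mice numbered 1, 3, 5 and 7 a negative control oligonucleotide. Both were given with lipofectamine 2000 as 150 pmol in 3 µl, weekly for 5 weeks. Cells of mimic mice 2 and 4 and control mice 1 and 3 were sorted on 17 April, and those of mimic mice 6 and 8 and control mice 5 and 7 on 19 April. The submitters' design text puts "AD" before the tissue without saying what it stands for, and no other difference between the mice is given.

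Single-cell wells are wells with at least 50000 counts, at least 1000 genes and at most 6000 genes. The limits on counts and on the lowest number of genes left 675 of 768 wells, and the upper limit left 659. These 659 held 61342 to 1116183 counts (median 644544) and numbered 73 to 90 per mouse. The other 16 wells had 10045 to 11362 genes each, 2 in every mouse, and were left out of the classes, since the labels give 94 sorted cells per mouse and the table holds 96 wells. The labels also give 2 maps from wells to mice. Of 768 wells, 96 have the same mouse in both maps and 384 the same treatment. Values by mouse use the map in the sample descriptions. Where the map in the sample titles turns the direction of a share difference or fold change printed for 1 of the 10 genes, that is said beside the value. Values over all wells and by class of cell do not depend on either map.

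Oligodendrocyte precursors are dividing glial cells that persist in the adult brain and produce the oligodendrocytes that wrap axons in myelin. They carry the PDGF receptor alpha (Pdgfra), whose ligand PDGF-A keeps them dividing, and the proteoglycan NG2 (Cspg4). A precursor that leaves the cycle passes through a short-lived committed state, marked in mouse brain by Gpr17, Neu4, Bmp4 and Enpp6, before it expresses the genes of compact myelin. Bcas1 is known from early myelinating cells, and its transcript is still found in mature ones. Several of these genes are not confined to the lineage in the brain: Pdgfra is also a fibroblast gene, and Cspg4 a gene of pericytes and vascular smooth muscle.

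The promoters of 3 of the genes are shown because of their transcripts in the precursor wells described below. Pdgfra and Enpp6 were never found in the same single-cell well, and Tnr was found in every precursor-like well. Each runs from 250 bases before to 50 bases after the annotated start (RefSeq, GRCm38.p6). Capitals mark CAGCTG, an E-box form bound by basic helix-loop-helix factors, and ACAAAG or ACAATG, forms of the SOX factor motif, on either strand.
Pdgfra promoter, chr5:75152001-75152300, + strand: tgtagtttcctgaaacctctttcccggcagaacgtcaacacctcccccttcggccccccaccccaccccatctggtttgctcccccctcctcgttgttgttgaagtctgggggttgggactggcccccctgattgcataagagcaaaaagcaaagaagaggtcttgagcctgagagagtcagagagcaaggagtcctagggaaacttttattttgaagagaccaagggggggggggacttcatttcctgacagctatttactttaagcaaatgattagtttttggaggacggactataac
Tnr promoter, chr1:159523519-159523818, + strand: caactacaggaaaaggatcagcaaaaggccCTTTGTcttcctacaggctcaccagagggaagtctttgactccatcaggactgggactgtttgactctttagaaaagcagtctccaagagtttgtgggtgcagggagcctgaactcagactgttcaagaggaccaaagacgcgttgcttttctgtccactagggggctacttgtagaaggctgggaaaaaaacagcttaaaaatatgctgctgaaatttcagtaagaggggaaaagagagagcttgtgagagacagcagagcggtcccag
Enpp6 promoter, chr8:46986637-46986936, + strand: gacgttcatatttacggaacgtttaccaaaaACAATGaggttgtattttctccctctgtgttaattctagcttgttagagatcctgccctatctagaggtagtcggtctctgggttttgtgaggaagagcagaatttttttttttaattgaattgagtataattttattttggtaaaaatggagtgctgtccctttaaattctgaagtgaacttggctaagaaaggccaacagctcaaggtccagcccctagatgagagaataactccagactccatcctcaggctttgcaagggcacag
The Pdgfra window held none of the 3 motifs, the Tnr window 1 ACAAAG on the opposite strand and the Enpp6 window 1 ACAATG. Over 32851 promoters of the same length, 16.3% held CAGCTG, 18.7% ACAAAG and 12.6% ACAATG. Promoter windows were at hand for 8 of the 10 genes, 9 windows in all. Among the others, Lhfpl3 held 2 CAGCTG, Matn4 had 1 CAGCTG at 1 of its 2 starts, and Cspg4, Neu4 and Bmp4 held none of the motifs. A match describes the letters in the window, and no match says only that these letters are not in it.

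The mimic copies the mature miR-132-3p, whose bases lie at chr11:75173723-75173744 on the + strand. Its sequence is shown with the seed, bases 2 to 8, in capitals. The longest annotated 3′ UTR of each gene (GENCODE M21, mm10) was searched for the letters that pair with the seed, and the 3 places found are shown with the pairing letters in capitals.
mmu-miR-132-3p: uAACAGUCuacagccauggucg
Neu4 place 1, chr1:94026004-94026010, + strand: tctttttcaaGACTGTTtctctgtgtta
Neu4 place 2, chr1:94026977-94026983, + strand: agtctgccttcACTGTTAgtagcactgt
Enpp6, chr8:47094485-47094491, + strand: ttttctcagctACTGTTAtgccatgtga
None of the 10 genes held the 8-letter site GACTGTTA, which 457 of 17930 genes (2.55%) with a 3′ UTR held. Neu4 held 1 full 7-letter seed match, GACTGTT, which 2081 of 17930 genes (11.6%) held. The second place in Neu4 and the place in Enpp6 pair with 6 seed letters followed by A (ACTGTTA). The other 8 genes had no such letters in 3′ UTRs of 263 (Matn4) to 7516 (Tnr) bases.

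Wells were grouped by clustering in which these 10 genes were left out, so that their levels by class were not used to form the classes. Of 659 wells, 18 formed a cluster called precursor-like, in which all 6 precursor markers outside the 10 genes (C1ql1, Cacng4, Vcan, Ptprz1, Sox6 and Pcdh15) were found. A pair of clusters, of 91 and 210 wells, made up the 301 oligodendrocyte-like wells. The other classes were endothelial-like (107 wells), astrocyte-like (95), pericyte-like (72), neuroblast-like (38), fibroblast-like (16) and smooth muscle-like (12). The 10 leading genes by fold of the precursor-like cluster included Nxph1, Brinp1 and Dscam. None of these 10 was among the 6 precursor markers or the markers of another class. A well is called positive for a gene at 10 CPM or more.

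Neu4, which encodes a sialidase, was found in the precursor-like class and nowhere else. It was positive in 17 of 18 precursor-like wells and in 0 of the other 641. Among the 301 oligodendrocyte-like wells, 0 positive allows a share of up to 0.997% (3 counts, counting error only). Tnr, the extracellular matrix protein tenascin-R (chr1:159523769-159931729, + strand), and Gpr17, a G protein-coupled receptor, were positive in all 18. Outside the class, Tnr was positive in 6 of 641 wells, at 13.8 to 388 CPM, and Gpr17 in 14. Lhfpl3, a tetraspan membrane protein, was positive in 16 of 18 precursor-like wells and otherwise in 5 of 301 oligodendrocyte-like wells, at 35 to 137 CPM. Matn4, the matrix protein matrilin-4, was positive in 16 of 18 and also in 21 oligodendrocyte-like and 3 astrocyte-like wells.

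Pdgfra (chr5:75152292-75198215, + strand) was found in precursor-like and fibroblast-like wells alike. It was positive in 12 of 18 precursor-like wells (66.7%, 95% Wilson interval 43.7% to 83.7%), with a mean over the class of 1873 CPM, and in 12 of 16 fibroblast-like wells (75%, 50.5% to 89.8%), with a mean of 1063 CPM. The remaining 3 of its 27 positive wells were 2 oligodendrocyte-like wells (70.9 and 347 CPM) and 1 neuroblast-like well (717 CPM). Cspg4 (chr9:56865033-56899870, + strand) was positive in 95 wells, of which 64 were pericyte-like, 12 precursor-like and 11 smooth muscle-like. Its mean was 988 CPM in precursor-like, 1111 CPM in pericyte-like and 768 CPM in smooth muscle-like wells. Averaged by mouse, the pericyte-like level was 1130 ± 180 CPM and the precursor-like level 796 CPM, the means of 8 mice, and the spread of the precursor-like level between mice was larger than the gap between these means. Each gene taken singly was thus positive in more wells of other classes than of the precursor-like class, and the 12 wells positive for both were all precursor-like.

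Bmp4 (chr14:46383520-46390669, - strand), a secreted ligand of the BMP family that in culture holds precursors back from maturing, was positive in 10 of 18 precursor-like wells at a class mean of 655 CPM. It was also positive in 22 of 72 pericyte-like wells (mean 237 CPM) and 4 of 16 fibroblast-like wells (mean 107 CPM), and in 0 of 301 oligodendrocyte-like wells. Enpp6 (chr8:46986887-47096762, + strand), a choline-specific phosphodiesterase, was confined to the lineage in these wells, with 6 of 18 precursor-like and 60 of 301 oligodendrocyte-like wells positive and 0 of the other 340. Bcas1 (chr2:170346991-170427845, - strand) was positive in 15 of 18 precursor-like wells (mean 1234 CPM) and 268 of 301 oligodendrocyte-like wells (mean 331 CPM). Elsewhere it was positive in 4 wells, 3 astrocyte-like and 1 neuroblast-like. The classes differ little in depth, with median counts of 544618 to 705409 per well. With every well thinned to 50000 counts and 1 count taken as positive, Neu4 remained in 94.4% of precursor-like and 0% of oligodendrocyte-like wells, Enpp6 in 33.3% and 19.9%, and Bcas1 in 77.8% and 89.4%.

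**Figure D1:**
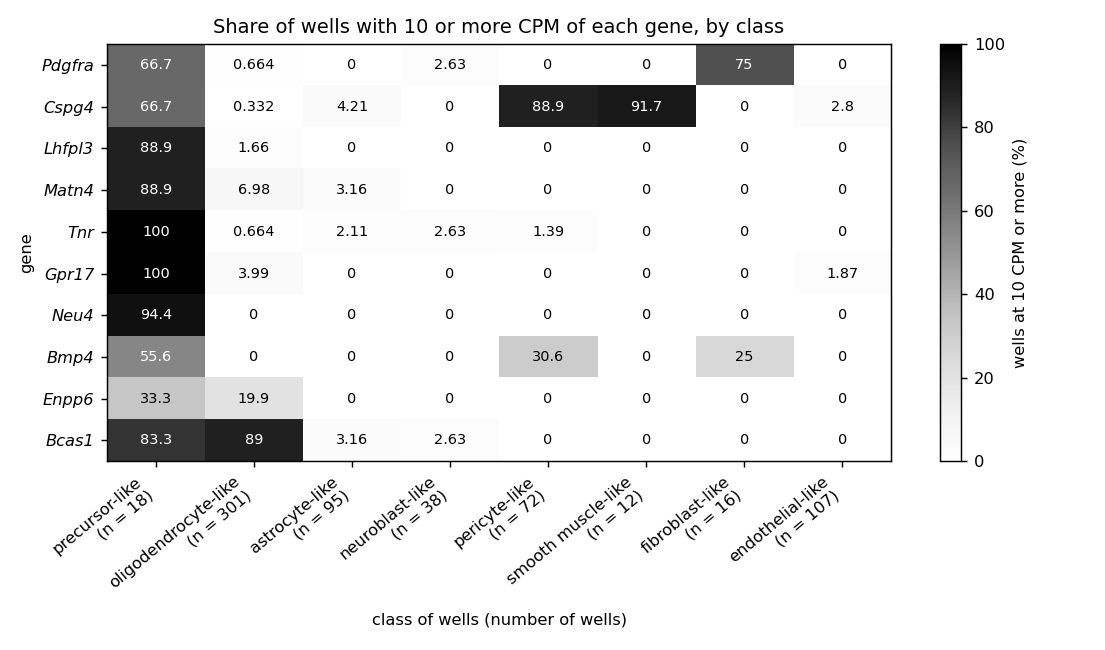
Share of wells (%) with 10 or more CPM of each gene (down) in each class of wells (across, with the number of wells). Neu4, Lhfpl3, Tnr and Gpr17 are dark only in the precursor-like column, Pdgfra is shared with fibroblast-like wells (75%) and Cspg4 with pericyte-like (88.9%) and smooth muscle-like wells (91.7%).

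Within the 18 precursor-like wells the genes fell into a pattern that divided the wells without overlap. This division was noticed in the values, so it is described and not tested. In 12 wells Pdgfra ran from 1304 to 4644 CPM (median 2618) and Cspg4 from 121 to 4005 CPM (median 1154), and in the other 6 wells both were at 0. Enpp6 was at 0 in all 12 of the Pdgfra-positive wells. In the 6 Pdgfra-negative wells Enpp6 was 1359, 1959, 2069, 2285, 2961 and 8090 CPM. Every precursor-like well thus held either Pdgfra with Cspg4 or Enpp6, and none held both.

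The wells were placed in order by a myelin level, the mean log2(CPM + 1) of 18 myelin genes that include none of the 10. This level ran from 0.532 to 1.98 (median 1.25) in the 12 Pdgfra-positive wells, from 2.32 to 5.37 (median 4.83) in the 6 Pdgfra-negative wells, and had a median of 11 in the 301 oligodendrocyte-like wells. The 3 sets did not overlap apart from 3 oligodendrocyte-like wells that lay under 9, the lowest at 0.486. Mbp, the myelin basic protein, had a median of 0 CPM in the Pdgfra-positive, 7865 CPM in the Pdgfra-negative and 14860 CPM in the oligodendrocyte-like wells.

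Genes of the committed state had higher medians in the Pdgfra-negative wells. Gpr17 ran from 393 to 5278 CPM (median 1444) in the 12 Pdgfra-positive wells and from 1928 to 10775 CPM (median 8558) in the 6 Pdgfra-negative wells, and the ranges overlapped. Its highest values, 10775, 10476 and 9050 CPM, were in the 3 wells of lowest myelin level among the 6, and its lowest, 2984 and 1928 CPM, in the 2 of highest. Bmp4 was positive in 4 of 12 Pdgfra-positive wells, at 56.1 to 611 CPM, and in 6 of 6 Pdgfra-negative wells, at 573 to 3045 CPM. Bcas1 was positive in 9 of 12 and in 6 of 6, with medians of 193 and 2877 CPM. Neu4 had medians of 835 and 1810 CPM, with 1 Pdgfra-positive well at 0.

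Tnr, listed here with the precursor genes, was higher in the Pdgfra-negative wells. It ran from 989 to 4661 CPM in the Pdgfra-positive and from 4704 to 11109 CPM in the Pdgfra-negative wells, ranges that did not meet. Lhfpl3 and Matn4 went the other way. Lhfpl3 ran from 142 to 1187 CPM (median 449) in the Pdgfra-positive and from 0 to 243 CPM (median 70.3) in the Pdgfra-negative wells. Matn4 had medians of 1128 and 317 CPM in these sets. Lhfpl3 was at 0 in the 2 wells of highest myelin level.

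**Figure D2:**
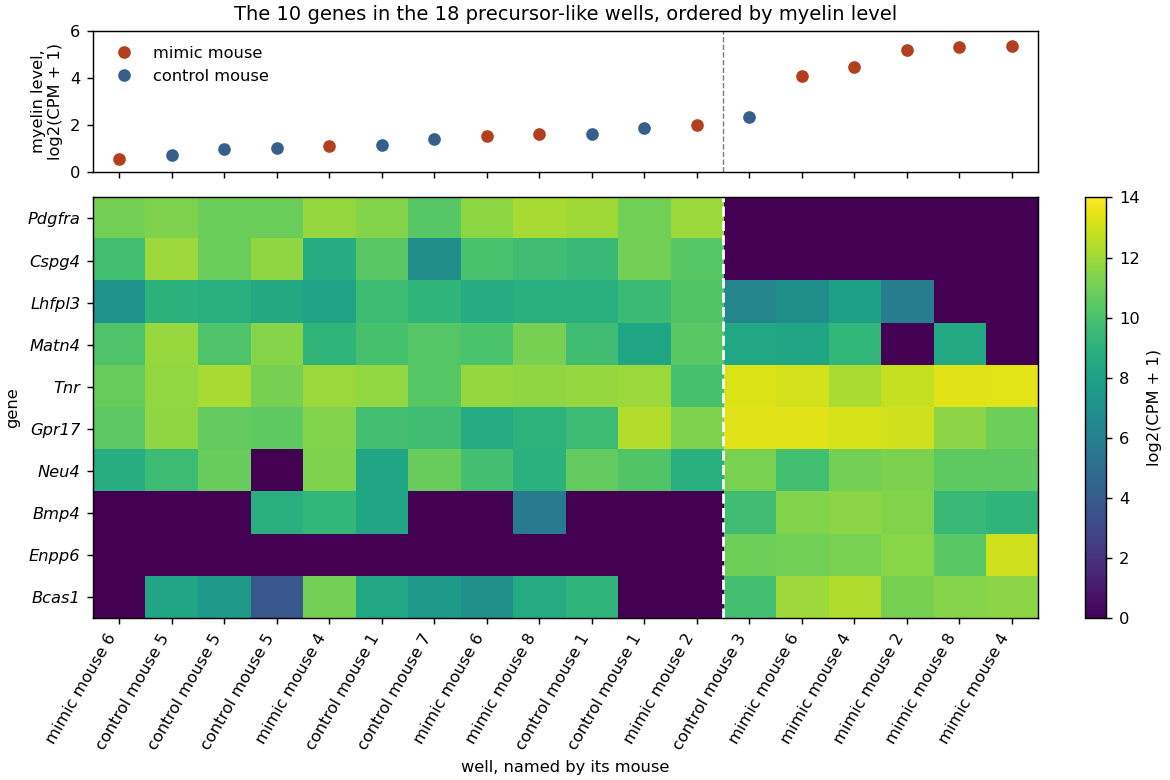
The 18 precursor-like wells in order of myelin level, with that level above (mean log2(CPM + 1) over 18 genes, coloured by treatment) and log2(CPM + 1) of the 10 genes below. Left of the dashed line are the 12 wells with Pdgfra and Cspg4, none of which holds Enpp6. Right of it are the 6 wells with Enpp6, without Pdgfra and Cspg4, at myelin levels of 2.32 to 5.37.

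Other genes of the lineage showed a like division, which was not tested. Their lists were chosen for their roles, with earlier results of these data known. The further precursor list holds Ptprz1, Sox6 and Pcdh15, markers used to name the precursor-like class, and clustering left out only the 10 genes. Its contrast with the oligodendrocyte-like wells is therefore partly set by how the classes were made. Of 16 further precursor genes, 14 had their highest mean log2 level in the Pdgfra-positive wells, 2 in the Pdgfra-negative and 0 in the oligodendrocyte-like wells. The median log2(CPM + 1) of the list was 8.72, 5.79 and 0.09 in these sets. Ednrb, an endothelin receptor, was positive in 11 of 12 and 0 of 6, and Ptprz1, a receptor phosphatase, had medians of 6563, 1114 and 0 CPM. Sox6, a factor that holds precursors immature, was positive in 10 of 12 and 5 of 6 and in 0 of 301 oligodendrocyte-like wells. Of 15 further transition genes, 14 were highest in the Pdgfra-negative wells. Myrf, the factor that switches on myelin genes, was positive in 0 of 12, 6 of 6 and 275 of 301 wells, and Fyn, a kinase of early myelination, in 4 of 12, 6 of 6 and 30 of 301. Rras2 was the exception, with its highest mean log2 level in the Pdgfra-positive wells. It was positive in 0 of 12 and 0 of 6, so all its values in both sets were under 10 CPM.

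The lineage factors Sox10 and Olig1 were found in all 3 sets. Sox10 was positive in 11 of 12, 6 of 6 and 292 of 301 wells, with medians of 397, 619 and 318 CPM. Olig1 was positive in 12 of 12, 6 of 6 and 300 of 301. Hes5 and Id2, targets of Notch and BMP signalling, were positive in 9 and 11 of the 12 Pdgfra-positive wells and in 0 of the 6 Pdgfra-negative wells. All 18 myelin genes were highest in the oligodendrocyte-like wells, as the ordering by them requires. Markers of other classes were near 0 in both precursor sets for pericytes (8 of 8 genes in no well of either set), endothelium (10 of 10) and fibroblasts (7 of 8 and 8 of 8). Of 10 astrocyte markers, 5 were positive in at least 50% of the Pdgfra-positive wells and 1 in the Pdgfra-negative wells. Of 9 neuroblast markers these numbers were 2 and 0, and 4 and 8 markers were in no well of the sets. Of 7 neuron markers 4 and 6, and of 8 microglia markers 7 and 7, were in no well of these sets.

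Pdgfa, the ligand of the Pdgfra receptor, was positive in 0 of 12 Pdgfra-positive wells, 3 of 6 Pdgfra-negative wells and 135 of 301 oligodendrocyte-like wells, with a mean of 106 CPM in the last. The other receptor of the family, Pdgfrb, was at 0 in both precursor sets. Of 16 further genes of the BMP pathway, 0 were positive in at least 50% of the Pdgfra-positive wells and 1 in at least 50% of the Pdgfra-negative wells. Bmp7, another ligand, was positive in 3 of 12 and 0 of 6 wells, and the receptor Bmpr2 in 2 of 12 and 3 of 6. Smad7, an inhibitor of the pathway, was positive in 0 of 12, 0 of 6 and 81 of 301.

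Mki67, a marker of dividing cells, was positive in 2 of the 12 Pdgfra-positive wells, at 79.4 and 1065 CPM, and in 0 of the 6 others. The well at 1065 CPM came from mimic mouse 8, also held Top2a at 859 CPM and had the highest Pdgfra of all single-cell wells, 4644 CPM.

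Co-detection in the 659 single-cell wells, from the same positive calls, was as follows. Precursor-like wells held 6 to 9 of the 10 genes each, and no other well held more than 4: 256 wells held 0, 273 held 1, 105 held 2, 6 held 3 and 1 held 4. Pdgfra and Cspg4 shared 12 wells, which is 44.4% of the Pdgfra-positive and 12.6% of the Cspg4-positive wells. All 17 Neu4-positive wells were also positive for Tnr and Gpr17. Bmp4 and Cspg4 shared 25 wells, of which 4 were precursor-like and 21 lay in classes outside the lineage. Pdgfra and Enpp6 shared 0 wells of 27 and 66, and Cspg4 and Enpp6 0 of 95 and 66. Enpp6 and Bcas1 shared 59 wells, 89.4% of the Enpp6-positive and 20.6% of the Bcas1-positive wells, 53 of them oligodendrocyte-like.

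Taking the wells of the precursor-like and oligodendrocyte-like classes that held each gene, the genes were ordered by the median myelin level. It was 1.38 for Cspg4, 1.46 for Pdgfra, 1.62 for Neu4, 1.75 for Tnr and 1.87 for Lhfpl3. It was 3.21 for Bmp4, 4.83 for Gpr17, 10.4 for Matn4, 11 for Bcas1 and 11.2 for Enpp6. The 5 lowest medians lie within the range of the 12 Pdgfra-positive wells and are not apart from each other. Neu4 and Bmp4 had no positive well above 5.37, and Enpp6 none below 2.32. The late place of Matn4 rests on its 21 oligodendrocyte-like wells, in which it was low, with a class mean of 5.24 CPM. Gpr17, positive in all 18 precursor-like wells, takes its place from 12 oligodendrocyte-like wells at 10.2 to 218 CPM. Enpp6 is placed last by 60 wells of a class that averaged 82.3 CPM, against a mean of 3121 CPM in the Pdgfra-negative wells, so the order follows the number of positive wells and not the level.

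**Figure D3:**
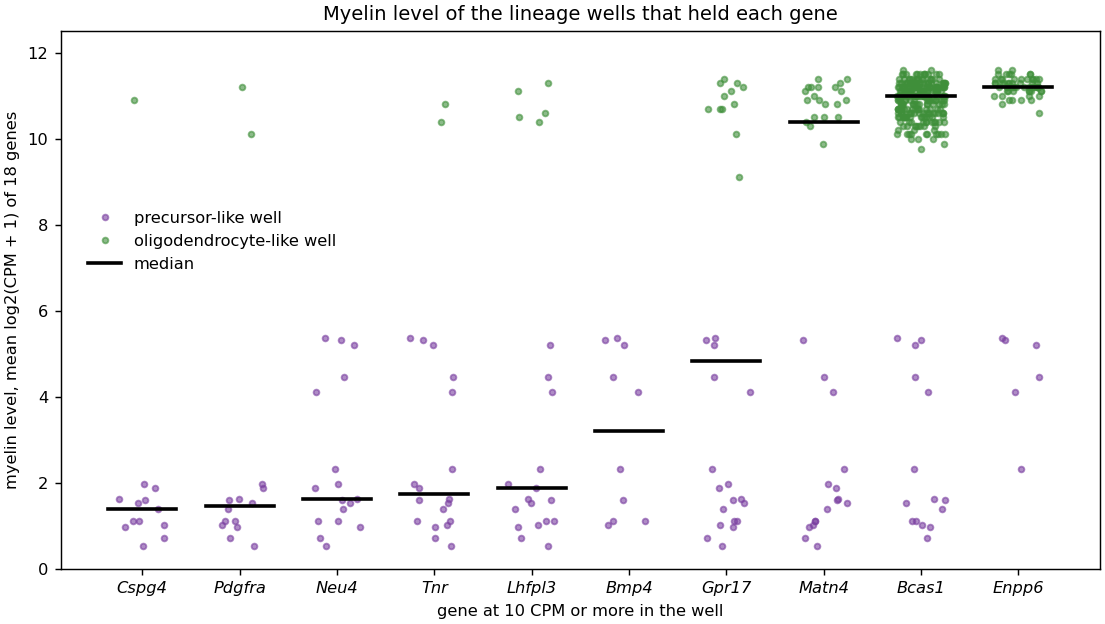
Myelin level (mean log2(CPM + 1) of 18 myelin genes) of each precursor-like or oligodendrocyte-like well that held the gene at 10 CPM or more, with bars at the medians, which run from 1.38 for Cspg4 to 11.2 for Enpp6. No plotted well lies between 5.37 and 9, and Enpp6 has no well under 2.32.

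For each gene, the genes outside the list whose log2(CPM + 1) went with it most closely over the 659 wells were found, as a description. For Tnr, Neu4, Gpr17, Lhfpl3 and Matn4 the closest was 3110035E14Rik, with a Pearson r of 0.82, 0.83, 0.76, 0.78 and 0.69. That gene was positive in 19 wells, 11 Pdgfra-positive and 5 Pdgfra-negative precursor-like wells among them. For Pdgfra it was Nxph1 (r 0.64), positive in 10 wells, all Pdgfra-positive precursor-like. For Cspg4 the 5 closest genes began with Higd1b (r 0.80) and Rgs4 and Cd248 (0.78 each), and for Bmp4 with Bgn (0.43). Higd1b was among the pericyte markers used to name classes. For Enpp6 the closest was Anln (r 0.41) and for Bcas1 Gjc3, a connexin of myelinating glia (r 0.87). The points share libraries and depth, and most wells are at 0 for most of these genes.

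The 301 oligodendrocyte-like wells still held some of the 10 genes. Enpp6 was positive in 20.9% of the 91 wells of the first cluster and 19.5% of the 210 wells of the second, and Bcas1 in 90.1% and 88.6%. The first cluster was led by Egr2, Bcas1os1 and Arc. Bcas1os1, annotated on the strand opposite Bcas1, was positive in 50.5% of the wells of the first cluster and 11% of those of the second. Clustering left out only the 10 genes, so Bcas1os1 was open to use in forming these clusters. It was also picked as a leading gene of the first, so this contrast is partly set by how the clusters were made. Wells of the first cluster came from 7 mice and those of the second from 8. Of the 69 oligodendrocyte-like wells positive for Bcas1os1, 64 were also positive for Bcas1. Strand was not recorded, so reads of these 2 genes in the overlap cannot be told apart. Antisense genes also overlap Pdgfra, Lhfpl3, Matn4, Tnr, Gpr17, Bmp4 and Enpp6, and none overlaps Cspg4 or Neu4.

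The comparison of mimic with control mice asked whether the number of cells with each gene, or its level, differed with the treatment. Positive wells per gene were compared as the share of a mouse's single-cell wells, with an exact two-sided permutation test over the 70 splits of 8 mice, whose smallest p is 0.0286. The groups of mice overlapped for all 10 genes, so 0 of 10 were apart. Over 13084 genes positive in at least 10 wells, 236 (1.8%) had groups that did not overlap.

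Neu4, the gene confined to the precursor-like class, was positive in 2, 3, 3 and 2 wells of mimic mice 2, 4, 6 and 8 and in 3, 1, 2 and 1 wells of control mice 1, 3, 5 and 7. Its share averaged 3.04 ± 0.953% in mimic mice and 2.12 ± 1.03% in control mice (SD, n = 4 each, exact permutation p = 0.286). The difference was 0.757 points on 17 April and 1.08 points on 19 April. Gpr17 was positive in 3.96 ± 1.45% of wells in mimic mice and 5.77 ± 2.46% in control mice (SD, n = 4 each, exact permutation p = 0.257), with differences of -0.412 and -3.21 points on the 2 dates. This difference of -1.81 points was -0.0758 points with 1 count as positive, -0.233 points at 50 CPM and -0.342 points in wells thinned to 50000 counts. By the map in the sample titles, the difference was -0.255 points for Neu4 and 0.0532 points for Gpr17, each in the opposite direction. The other 8 genes had exact permutation p-values of 0.514 (Tnr) to 1 (Pdgfra and Enpp6). Of these, 5 turned direction by the title map. The difference was -1.5 points by titles against 0.0993 by descriptions for Pdgfra, -0.232 against 0.24 for Lhfpl3 and -1.22 against 0.572 for Tnr. It was 4.11 (exact permutation p = 0.0857) against -0.0171 for Enpp6 and 3.85 against -5.75 for Bcas1.

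Precursor-like wells numbered 2, 3, 3 and 2 in mimic mice and 3, 1, 3 and 1 in control mice. Those with Pdgfra numbered 1, 1, 2 and 1 in mimic mice and 3, 0, 3 and 1 in control mice, 5 against 7 in all. Those without Pdgfra numbered 1, 2, 1 and 1 in mimic mice and 0, 1, 0 and 0 in control mice, 5 against 1 in all. By the map in the sample titles, precursor-like wells without Pdgfra numbered 3 in mimic mice and 3 in control mice, those with Pdgfra 5 and 7, and all precursor-like wells 8 and 10, so the 5 against 1 is not found by that map. Since this division was made after the values were seen, the counts carry no test. With at least 3 of the 5 precursor genes (Pdgfra, Cspg4, Lhfpl3, Matn4 and Tnr) as the criterion, 7 wells of mimic mice and 8 of control mice were counted, and with at least 2 of the 4 transition genes (Gpr17, Neu4, Bmp4 and Enpp6), 10 and 10. All 15 wells that met the first criterion also met the second, which took in all 18 precursor-like wells, so these criteria do not separate precursors from the transition.

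For Cspg4 and Bcas1, the shares are given beside the wells of the class that holds most of their positive wells. Cspg4 was positive in 12.7 ± 4.17% of wells in mimic mice and 16 ± 7.18% in control mice (SD, n = 4 each, exact permutation p = 0.571), and the difference was -3.16 points on 17 April and -3.55 points on 19 April. Pericyte-like wells numbered 6, 5, 10 and 13 in mimic mice and 8, 5, 7 and 18 in control mice. Control mouse 7 was highest in both. Bcas1 was positive in 40.8 ± 9.92% of wells in mimic mice and 46.6 ± 15.3% in control mice (SD, n = 4 each, exact permutation p = 0.6), with differences of -4.96 and -6.55 points on these dates. Without control mouse 7 the Bcas1 difference was -13.4 points (exact permutation p = 0.0857), and by the title map it was 3.85 points. Without that mouse the Cspg4 difference was 0.0592 points. Oligodendrocyte-like wells numbered 43, 38, 31 and 28 in mimic mice and 53, 40, 46 and 22 in control mice, 140 against 161 in all. By the title map they numbered 161 in mimic mice and 140 in control mice, the opposite direction. The part of these class counts in the shares was not tested.

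**Figure D4:**
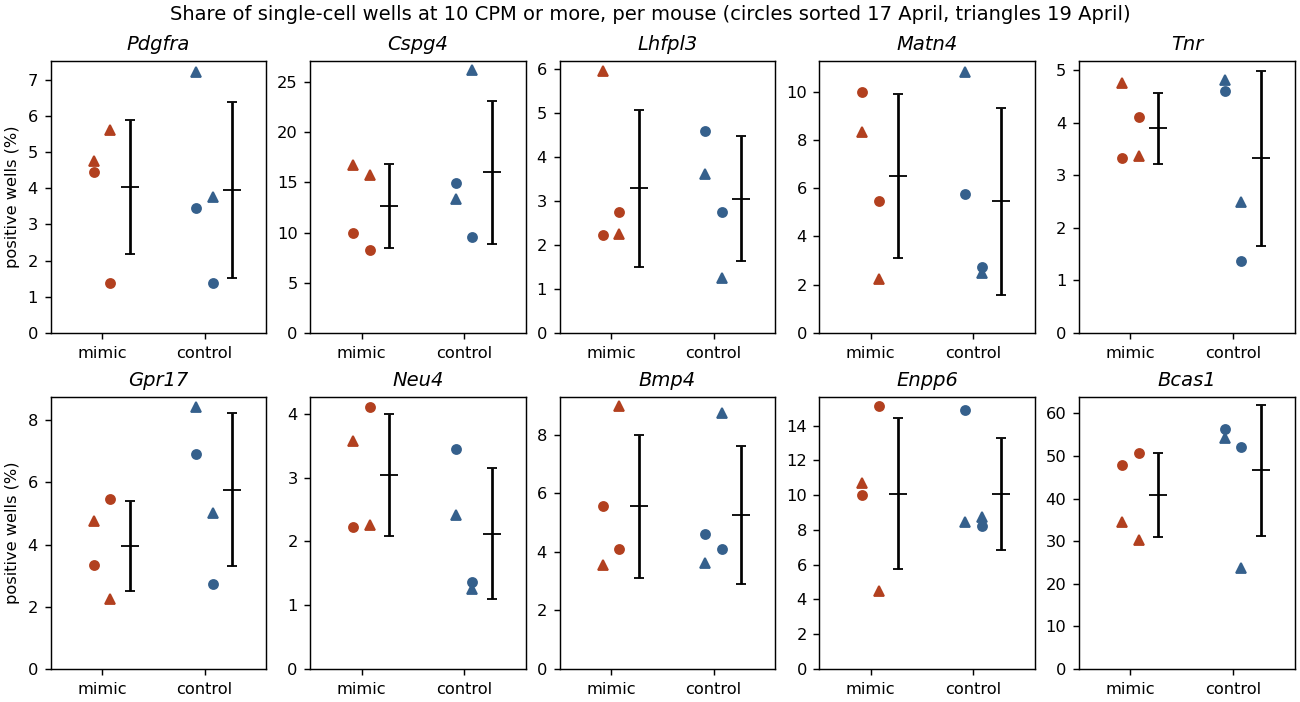
Share of single-cell wells (%) at 10 CPM or more of each gene, 1 point per mouse, mimic mice and control mice side by side, circles for 17 April and triangles for 19 April, with mean and SD (n = 4 each). The points of the 2 treatments overlap in all 10 panels, and control mouse 7 is the highest for Cspg4 (26.2%) and the lowest for Bcas1 (23.8%).

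Counts summed over all single-cell wells of a mouse were compared with edgeR's quasi-likelihood test, with sort date in the fit and Benjamini-Hochberg adjustment over 16363 genes. In counts summed over all classes, fewer cells of a type and less RNA per cell cannot be told apart. No gene passed an adjusted p of 0.05 (0%), 645 (3.94%) had an unadjusted p under 0.05, and 0 of the 10 were among either. DESeq2 called 96 genes and the edgeR fit without a filter on low counts 81, in both none of the 10. Tnr summed to 92.8, 312, 137 and 187 CPM in mimic mice and to 139, 177, 127 and 23.2 CPM in control mice. Its log2 fold change was 0.68 with a standard error of 0.55 (edgeR, adjusted p = 1), and the groups overlapped. Cspg4, at 90.9, 90.6, 125 and 200 CPM in mimic mice and 189, 88, 212 and 262 CPM in control mice, had the smallest unadjusted p of the 10 in edgeR (0.0509) with a log2 fold change of -0.61 and a standard error of 0.27 (adjusted p = 1). Bmp4 summed to 52.9, 68, 41.3 and 66.2 CPM in mimic mice and to 14.9, 71.7, 8.18 and 44.1 CPM in control mice, with a log2 fold change of 0.74 and a standard error of 0.59 (edgeR, adjusted p = 1). Enpp6 was at 0.61 ± 0.47 (standard error), Gpr17 at 0.48 ± 0.50, Pdgfra at 0.34 ± 1.15, Neu4 at 0.15 ± 0.38 and Bcas1 at 0.01 ± 0.29 on the log2 scale, all with an adjusted p of 1 in edgeR. By the title map Pdgfra was at -0.47. Matn4 (-0.30) and Lhfpl3 (-0.57) were on the other side of 0. The median log2 fold change was 0.25 over the 10 genes and 0.01 over all genes tested.

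Related lists gave no gene past the adjusted threshold of 0.05 in edgeR either. Their values were taken by the map in the sample descriptions only. Of 16 further precursor genes 6 had positive and 10 negative log2 fold changes (median -0.16), with the smallest p for Pcdh15 at -1.79 (standard error 0.50) and Ednrb at 0.67 (standard error 0.36). Of 15 further transition genes 8 were positive and 7 negative (median 0.08), Fyn at 0.95 (standard error 0.42) and Prom1 at 0.90 (standard error 0.46) having the smallest p. Of 11 lineage factors 3 were positive and 8 negative (median -0.24), led by Olig1 at -0.39 (standard error 0.21) and Myrf at -0.45 (standard error 0.26). All 18 myelin genes were negative (median -0.21), led by Hapln2 at -0.48 (standard error 0.26) and Opalin at -0.35 (standard error 0.22). Within oligodendrocyte-like wells 8 of the 18 were positive and 10 negative (median -0.01). In the fit over all wells, 10 of 10 astrocyte markers (median 0.48) and 10 of 10 endothelial markers (median 0.58, 4 with an unadjusted p under 0.05) were positive, and their part in the values of these lists was not tested. Of 5 PDGF ligands and receptors 2 were positive and 3 negative, with Pdgfa at -0.55 (standard error 0.42) and Pdgfc at -1.36 (standard error 1.57). Of 16 BMP pathway genes 14 could be tested, 11 positive and 3 negative (median 0.58), with Chrd at -6.94 (standard error 1.76) and Bmpr2 at 1.34 (standard error 0.36). Of 11 cycling genes 10 could be tested and 9 were positive (median 3.39), with Top2a at 6.04 (standard error 3.36) and Cenpf at 5.43 (standard error 4.71). Among precursor-like wells, only 1 well of mimic mouse 8 held Top2a, at 859 CPM. How far the list values rest on single wells or mice was not tested. On simulated counts for this comparison (16360 genes) the test found 0% of 2-fold, 46% of 4-fold, 50% of 8-fold and 56% of 16-fold changes. It also called 3 unchanged genes. The changed genes were drawn at random from all those simulated, without a sort-date difference, so these shares are not the power for the 10 genes.

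In the oligodendrocyte-like wells alone, 22 to 53 per mouse, wells with Gpr17 at 10 CPM or more were mostly from control mice. The share of oligodendrocyte-like wells with any count of it was close in the 2 treatments. Gpr17 was positive in 1, 0, 0 and 0 of these wells in mimic mice 2, 4, 6 and 8 and in 3, 1, 4 and 3 in control mice 1, 3, 5 and 7, that is in 1 of 140 against 11 of 161. Shares per mouse were 2.33%, 0%, 0% and 0% in mimic mice and 5.66%, 2.5%, 8.7% and 13.6% in control mice, which did not overlap. With 1 count as positive, a threshold chosen for these wells after seeing the data, 24 of 140 wells of mimic mice (17.1%) and 28 of 161 of control mice (17.4%) held Gpr17, and the shares per mouse overlapped. Of 9399 genes positive in at least 10 oligodendrocyte-like wells, 249 (2.65%) had groups that did not overlap, and Gpr17 was the only 1 of the 4 listed genes that reached that number of wells to be among them. Summed counts were 1.26, 0.455, 0.33 and 0.33 CPM in mimic mice and 7.3, 0.638, 7.92 and 10.9 CPM in control mice, where control mouse 3 lay below mimic mouse 2. The log2 fold change was -3.52 with a standard error of 1.49 (edgeR, unadjusted p = 0.0437, adjusted p = 1), and 329 of 11580 genes (2.84%) had an unadjusted p under 0.05 while 0 (0%) passed the adjusted threshold. DESeq2 called 27 genes and the edgeR fit without a filter on low counts 18, Gpr17 not among them. By the map in the sample titles, Gpr17 was positive in 6 of 161 oligodendrocyte-like wells of mimic mice and 6 of 140 of control mice, and the log2 fold change was -1.36 (edgeR, adjusted p = 1).

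For the genes that oligodendrocyte-like wells hold in quantity, the values of the mimic and control mice overlapped. Bcas1 was at 390, 299, 225 and 318 CPM in mimic mice and at 379, 311, 388 and 300 CPM in control mice, with a log2 fold change of -0.19 and a standard error of 0.19 (edgeR, adjusted p = 1). Enpp6 was at 60.6, 92.1, 146 and 20.3 CPM in mimic mice and at 126, 45.3, 87.3 and 106 CPM in control mice, with a log2 fold change of -0.21 and a standard error of 0.56 (edgeR, adjusted p = 1). By the title map the log2 fold changes were 0.002 for Bcas1 and 0.30 for Enpp6. Matn4 had a log2 fold change of 0.04 with a standard error of 2.09, and Lhfpl3, at 0 CPM in 2 mice of each treatment, could not be measured with useful precision. Pdgfra, Cspg4, Tnr, Neu4 and Bmp4 had too few counts there to be tested. In simulated counts for these wells (11580 genes) the test found 6% of 2-fold, 42% of 4-fold, 58% of 8-fold and 66% of 16-fold changes. It also called 3 unchanged genes, and the changed genes were again drawn at random from all those simulated.

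**Figure D5:**
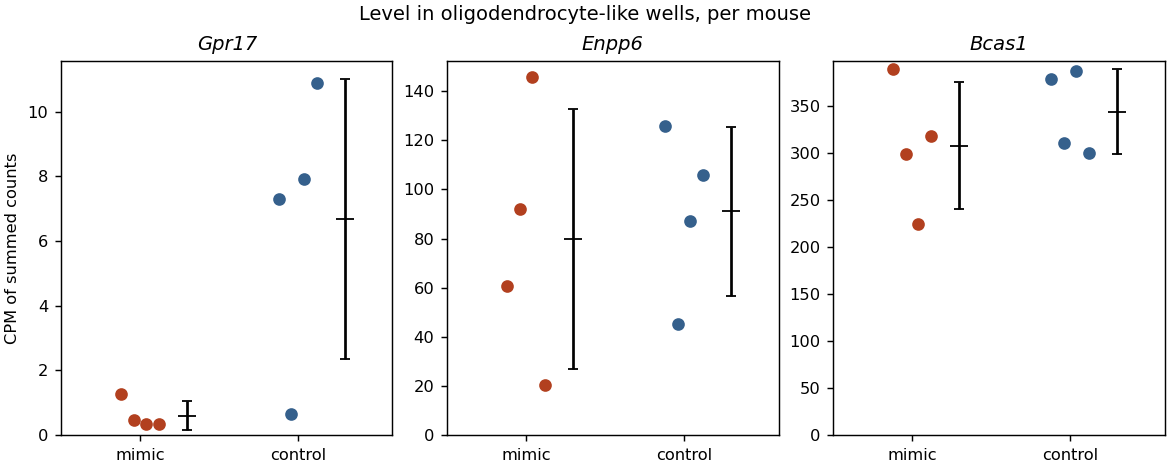
Level of Gpr17, Enpp6 and Bcas1 in oligodendrocyte-like wells (CPM of counts summed per mouse, 1 point per mouse), mimic mice and control mice side by side, with mean and SD (n = 4 each). Gpr17 averaged 0.594 CPM in mimic mice and 6.7 CPM in control mice, with 1 control mouse at 0.638 CPM, and Enpp6 and Bcas1 overlap.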

How the data were processed

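Nestin:GFP-sorted single cells were made into Smart-seq2 libraries, a full-length plate method without molecular identifiers, per the labels' protocols. The values are raw counts per gene and well, and the authors' deposited table has 32679 genes in rows and 768 wells in columns. FastQC, STAR, Subread, featureCounts 1.5.1, Seurat 2.3.1 and the build mm10 are named in the submitters' processing notes, and their settings are not given in the sources used here. The method does not mark strand. The 10 genes and all gene lists were chosen with earlier results of these data known.

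CPM used each well's total. Wells were clustered with the 10 genes left out (2000 variable genes, 20 principal components, 15 neighbours, Leiden resolution 1; scanpy 1.11.5, igraph 0.11.9, Python 3.11.15) and named from marker lists. No doublet caller was run on these sorted cells. The mouse was the replicate. Well names begin with L7 or L8 and a plate holds 4 mice, and plate was not a term in the fits. Counts summed per mouse were tested with edgeR 4.0.16 (R 4.3.3; filterByExpr, TMM, sort date as covariate, two-sided, Benjamini-Hochberg), and DESeq2 1.42.0 was an alternative. Standard errors are the log2 fold change divided by the square root of the F statistic. Shares of positive wells (10 CPM) were tested by exact permutation over mice. The test was checked on simulated counts. Named genes were all 10, for each the 5 genes of highest correlation, and in each list the 2 of smallest p. The text gives the closest of the 5, and list genes described by set of wells were chosen after their values were seen. Intervals cover counting error only.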

Additional observations from a re-analysis of the deposited data

Results flagged for a closer look

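Among 60 groups of 4 mice, 8 held a mouse far from the other 3 by Dixon's criterion, where chance gives about 3. Over all single-cell wells, these were the Lhfpl3 share in mimic mouse 6 (5.95%, highest), the Enpp6 share in control mouse 1 (14.9%, highest), the Bcas1 share in control mouse 7 (23.8%, lowest) and the Neu4 level in mimic mouse 4 (95.5 CPM, highest). Over oligodendrocyte-like wells, these were the summed levels of Pdgfra in mimic mouse 8 (14 CPM), Lhfpl3 in mimic mouse 6 (7.69 CPM), Matn4 in mimic mouse 2 (20.2 CPM) and Gpr17 in mimic mouse 2 (1.26 CPM), each the highest of the mimic mice. The number given for chance takes the 60 groups as independent and of like spread. Several groups share a gene and some rest on few counts, so 8 against 3 does not measure an excess.

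Some signal lay in wells outside the single-cell wells of the main comparisons. Of the 16 wells with more than 6000 genes, 10 were positive for at least 5 of the 10 genes (3 to 10 genes per well, median 8), while no well outside the precursor-like class held more than 4 among the single-cell wells. Of the 93 wells under the limits on counts or genes, 5 held at least 10 counts of Cspg4, 1 of Pdgfra (178 counts) and 1 of Tnr (58 counts).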

How the results depend on the processing

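No test result of the 10 genes crossed its threshold under any alternative run, and the sign of many differences changed, among them that of Bcas1, the share with the highest difference in size. With wells assigned by sample title, the difference in share of positive wells (mimic minus control, points) turned to -1.5 for Pdgfra, -0.232 for Lhfpl3, -1.22 for Tnr, 0.0532 for Gpr17, -0.255 for Neu4, 4.11 for Enpp6 and 3.85 for Bcas1. In the edgeR fits that map gave log2 fold changes of -0.47 for Pdgfra over all wells and of -1.77 for Lhfpl3, 0.30 for Enpp6 and 0.002 for Bcas1 in oligodendrocyte-like wells. The cause was not tested. With 1 count as positive, the share difference was -0.404 for Lhfpl3 and -1.65 for Bmp4. At 50 CPM it was -0.198 for Pdgfra. With wells over 6000 genes kept, it was -0.421 for Bmp4, and the log2 fold change of Bcas1 was -0.03. With wells of the 2 lineage classes as denominator, an alternative chosen after seeing the data, it was -0.264 for Pdgfra, 1.02 for Enpp6, 1.51 for Bcas1, -4.45 for Gpr17, 2.76 for Neu4 and 3.22 for Bmp4 (exact permutation p = 0.0571 for each of the last 2). In 2 further alternatives chosen after seeing the data, the mean number of precursor-like wells per mouse (mimic minus control) was -0.5 by sample title, against 0.5, and the Gpr17 share of oligodendrocyte-like wells -1.72 points at 1 count, against -7.04. DESeq2 called 96 genes over all wells and 27 in oligodendrocyte-like wells, and edgeR without a filter on low counts 81 and 18, against 0 in the main fits.

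Leaving out 1 mouse at a time gave share differences of -0.761 to 1.19 points for Pdgfra, -5.49 to 0.0592 for Cspg4, -0.647 to 0.756 for Lhfpl3, -0.104 to 2.85 for Matn4, -0.0784 to 1.07 for Tnr, -2.82 to -0.923 for Gpr17, 0.561 to 1.36 for Neu4, -0.856 to 1.45 for Bmp4, -1.68 to 1.84 for Enpp6 and -13.4 to -2.26 for Bcas1 (lowest without control mouse 7, exact permutation p = 0.0857). The Cspg4 difference passed 0 without control mouse 7. The log2 fold changes ran from -0.04 to 2.12 for Pdgfra, -0.96 to 0.32 for Lhfpl3, -0.70 to 0.42 for Matn4, -0.31 to 0.32 for Neu4 and -0.16 to 0.37 for Bcas1 over all wells. In oligodendrocyte-like wells they ran from -5.99 to 7.20 for Lhfpl3, -1.27 to 1.13 for Matn4, -0.94 to 0.15 for Enpp6 and -4.20 to -3.12 for Gpr17. No paired analysis was possible because each mouse received 1 treatment and no label links a mimic mouse to a control mouse beyond the sort date. Apart from Bcas1 (287 positive wells), Cspg4 (95) and Enpp6 (66), each share rests on 17 to 40 positive wells, and 4 mice per group limit the precision.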
